A study of Mus musculus with 6 samples.

Results

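Transsulfuration is the route by which the liver turns the sulfur of methionine into cysteine. Homocysteine from the methionine cycle is joined to serine by CBS, and the cystathionine that results is split by CTH into cysteine. Cysteine is then oxidized by CDO1 and decarboxylated by CSAD on the way to taurine, which conjugates bile acids, or it passes its sulfur through MPST, SQOR, ETHE1 and SUOX, the enzymes that transfer sulfur and oxidize sulfide and sulfite to sulfate. The 8 genes encoding these enzymes, *Cbs*, *Cth*, *Cdo1*, *Csad*, *Mpst*, *Sqor*, *Ethe1* and *Suox*, were picked by symbol from the 49671 genes of a liver RNA-seq count table.

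The livers came from 6 male C57BL/6J mice, 3 SHMT2 fl/fl and 3 SHMT2 HKO. Both groups carried the floxed *SHMT2* allele, and only the HKO mice carried Albumin-Cre, which drives deletion in hepatocytes and leaves other liver cells with the gene. SHMT2 is the mitochondrial enzyme that converts serine to glycine and supplies one-carbon units, so the deletion acts on an amino acid that CBS also consumes. All 6 mice were put on the AMLN diet, a feed with added fat, cholesterol and fructose, at 4 weeks of age, ate it for 18 weeks and were 22 weeks old at harvest. The labels name the groups WT and KO, taken here to mean SHMT2 fl/fl and SHMT2 HKO. Counts assigned to genes were 33954714, 23090837 and 34089722 in fl/fl mice 1, 2 and 3, and 29092690, 24641842 and 25848326 in HKO mice 1, 2 and 3.

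The targeted gene was examined first. *Shmt2* (ENSMUSG00000025403) stood at 94.6, 109 and 93.9 CPM in the fl/fl livers and at 24.9, 28.3 and 19.3 CPM in the HKO livers, where CPM is the count scaled to library size with the TMM factor applied. All 3 HKO livers lay below all 3 fl/fl livers, and the log2 fold change was -2.04 (SE 0.16, adjusted p = 0.000639, edgeR). In bulk tissue, fewer cells of a type and less RNA per cell cannot be told apart, and this holds for every gene below. The hepatocyte genes *Alb*, *Ttr*, *Apoa1*, *Trf*, *Fgb* and *Ahsg* were abundant in all 6 livers, with a sum of 58160, 59445 and 71975 CPM in fl/fl mice and 104247, 100001 and 67697 CPM in HKO mice.

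All 8 genes passed the filter on low counts, with 965 or more counts in every liver. Per exon length, *Cdo1* was by far the most abundant, at 489 ± 16.5 CPM per kb (SD, n = 3 mice) in fl/fl livers. *Csad* (67.8 ± 8.31) and *Cth* (66.8 ± 4.48) followed and did not differ from each other beyond their spread. *Cbs* (39.8 ± 7.66), *Mpst* (35.6 ± 3.53), *Suox* (32.5 ± 5.21), *Sqor* (32.2 ± 3.05) and *Ethe1* (28.6 ± 3.54) formed a lower tier in which each gene overlapped its neighbors. The length was that of all annotated exons merged, which for *Cbs* came to 7.485 kb, so genes with many alternative exons are understated. In HKO livers *Cdo1* again led at 768 ± 181 CPM per kb and *Ethe1* was again last at 34.1 ± 8.5, while *Mpst* (69.8 ± 21.8) stood level with *Cth* (66.8 ± 14.1) and *Csad* (59.4 ± 26.8).

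Of the 8 genes, 3 were higher in HKO livers at an adjusted p under 0.05, *Cdo1*, *Mpst* and *Suox*, and the fitted change of *Cdo1* and *Suox* turned negative when libraries were scaled to the ERCC spike-in RNAs. None was lower. Across all 16089 genes tested, 29.0% differed between the genotypes at the same threshold, 12.5% being higher and 16.5% lower in HKO livers. At an unadjusted p under 0.05 (edgeR) the count was 4 higher and 0 lower, where 19.5% of all tested genes were higher and 21.8% lower. DESeq2 at an adjusted p under 0.05 called 3 of the 8 higher and 0 lower, and 2535 higher and 2879 lower of all 16089 genes. The median log2 fold change of the 8 genes was 0.40, against 0.03 for all tested genes, and it turned to -0.05 with library size alone and to -0.43 with ERCC scaling. In 4 of the 8 genes (*Cdo1*, *Mpst*, *Suox* and *Sqor*) every HKO liver exceeded every fl/fl liver in TMM-scaled CPM, against 21.9% of all tested genes, and in 0 of 8 every HKO liver lay below, against 25.0% of all tested genes. The labels do not say more of the samples than genotype and number, so the p-values measure only the spread between these 6 livers.

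**Figure D1:**
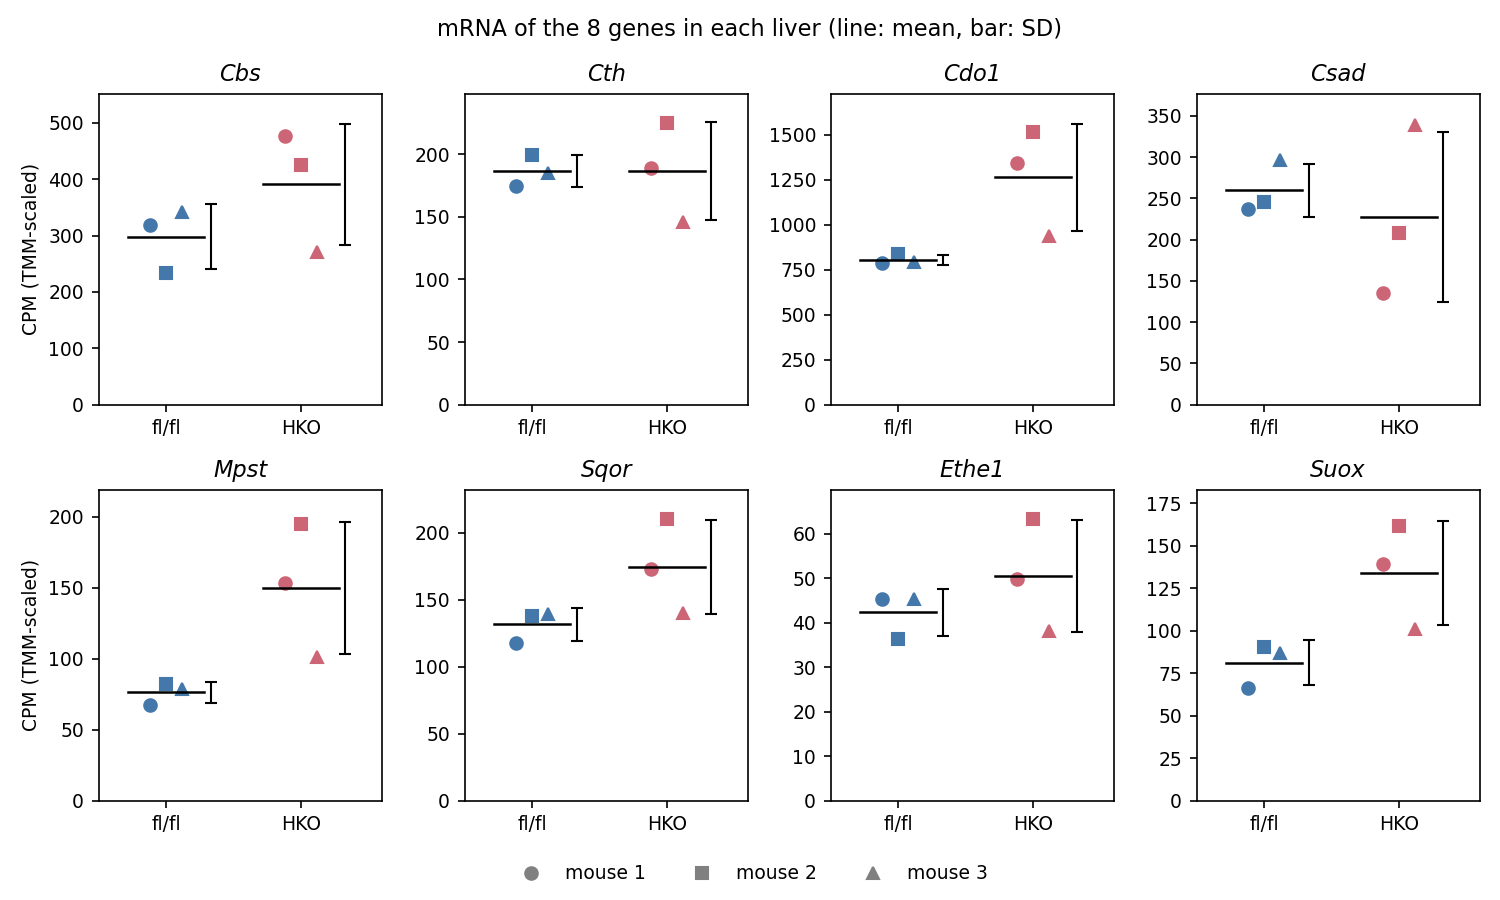
Level of each of the 8 mRNAs in every liver, as TMM-scaled CPM, with points for single mice, a line for the mean and a bar for the SD (n = 3 mice per genotype). *Cdo1*, *Mpst* and *Suox* separate the genotypes in TMM-scaled CPM, *Sqor* does so by a margin of 139.9 against 139.5 CPM, and on this scale HKO mouse 3 is the lowest HKO liver for 7 of the 8 genes, against 0 of 8 in counts per ERCC count.

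The entry into transsulfuration did not pass the test at either step. *Cbs* (ENSMUSG00000024039, GRCm38 chr17:31608894-31637238, minus strand) encodes cystathionine beta-synthase, the enzyme that commits homocysteine to cysteine. Its level was 319, 233 and 342 CPM in fl/fl mice 1, 2 and 3 and 476, 426 and 271 CPM in HKO mice 1, 2 and 3. HKO mice 1 and 2 stood above all fl/fl mice, but HKO mouse 3 fell among them. The log2 fold change was 0.39 (95% CI -0.16 to 0.94, adjusted p = 0.255, edgeR), and without HKO mouse 3 it was 0.57 (adjusted p = 0.0463, edgeR).

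*Cth* (ENSMUSG00000028179, chr3:157894248-157925077, minus strand) encodes cystathionine gamma-lyase, which releases cysteine and can also produce hydrogen sulfide. Its level was 175, 200 and 185 CPM in fl/fl livers and 189, 225 and 146 CPM in HKO livers. The HKO livers spanned the fl/fl range on both sides. The means were 186 ± 12.5 and 187 ± 39.5 CPM (SD, n = 3 mice each), and the interval of the log2 fold change ran from -0.39 to 0.40 around 0.00073 (adjusted p = 0.998, edgeR). With library size alone as the scale, *Cth* was lower in HKO livers by a log2 fold change of -0.44 (adjusted p = 0.031, edgeR), a scale on which the median gene stood at -0.40.

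The first committed step of taurine synthesis was higher in HKO livers with TMM scaling but not with ERCC scaling, and the second was the most variable of the 8 genes between HKO mice. *Cdo1* (ENSMUSG00000033022, chr18:46713193-46728395, minus strand) encodes cysteine dioxygenase, which oxidizes cysteine to cysteine sulfinate and is the main control on the cysteine level of liver. It was at 787, 835 and 790 CPM in fl/fl livers and at 1340, 1515 and 935 CPM in HKO livers. The fl/fl livers were close together and all HKO livers lay above them, HKO mouse 3 by the smallest margin. The log2 fold change was 0.65 (SE 0.20, 95% CI 0.19 to 1.12, adjusted p = 0.0439, edgeR). With ERCC scaling the log2 fold change was -0.17. The call was lost with library size alone (0.20), with upper-quartile factors (0.56), with a filter of at least 10 counts in every liver (0.61), with the replicate block (0.62), and on leaving out any mouse except HKO mouse 3, where the adjusted p lay between 0.0654 and 0.141 (edgeR).

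*Csad* (ENSMUSG00000023044, chr15:102176999-102204724, minus strand) encodes cysteine sulfinic acid decarboxylase, which makes hypotaurine from cysteine sulfinate. Its level was 238, 245 and 296 CPM in fl/fl livers and 136, 208 and 339 CPM in HKO livers. HKO mouse 1 was the lowest and HKO mouse 3 the highest of all 6 livers, so the HKO group enclosed the fl/fl group. In TMM-scaled CPM *Csad* was the only one of the 8 genes whose highest HKO liver was mouse 3. The log2 fold change was -0.19 (95% CI -0.88 to 0.50, adjusted p = 0.67, edgeR), and it turned to 0.08 without HKO mouse 1. Of its exons, 7.26% overlap *Zfp740* on the opposite strand, and whether the counting used the strand is not given in the sources used here.

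Of the 4 genes that move and oxidize sulfur, those for the transfer of sulfur from mercaptopyruvate and for the oxidation of sulfite passed the test with TMM scaling, and neither did with ERCC scaling.
*Mpst* (ENSMUSG00000071711, chr15:78406416-78414013, plus strand) encodes mercaptopyruvate sulfurtransferase, which passes sulfur from a product of cysteine to thiol acceptors. It stood at 67.7, 82.1 and 78.9 CPM in fl/fl livers and at 153, 195 and 101 CPM in HKO livers. Each HKO liver exceeded each fl/fl liver, and the means of 76.2 ± 7.57 and 150 ± 46.7 CPM (SD, n = 3 mice each) differed 1.96-fold. The log2 fold change of 0.97 (SE 0.22, 95% CI 0.46 to 1.49, adjusted p = 0.0148, edgeR) was positive under every setting tried, among them scaling to ERCC RNAs, where it was 0.13 (adjusted p = 0.834, edgeR). Without fl/fl mouse 1 the adjusted p was 0.0649 and without fl/fl mouse 3 it was 0.0557 (edgeR).

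*Suox* (ENSMUSG00000049858, chr10:128669894-128674073, minus strand) encodes sulfite oxidase, the mitochondrial molybdenum enzyme that turns sulfite into sulfate. Its level was 66.4, 90.7 and 86.7 CPM in fl/fl livers and 139, 162 and 101 CPM in HKO livers. The groups did not overlap, although HKO mouse 3 came near fl/fl mouse 2. The log2 fold change was 0.72 (SE 0.20, 95% CI 0.27 to 1.17, adjusted p = 0.028, edgeR), with a value of -0.08 under ERCC scaling. The call was lost without TMM, where the log2 fold change was 0.28 (adjusted p = 0.189, edgeR), and on leaving out fl/fl mouse 1, 2 or 3 or HKO mouse 2, where the adjusted p lay between 0.0586 and 0.102 (edgeR).

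The steps between them did not pass the test, with log2 fold changes of -0.38 for *Sqor* and -0.58 for *Ethe1* under ERCC scaling. *Sqor* (ENSMUSG00000005803, chr2:122765237-122809569, plus strand) encodes sulfide:quinone oxidoreductase, which feeds electrons from hydrogen sulfide into the respiratory chain. It was at 117, 138 and 139.5 CPM in fl/fl livers and at 173, 210 and 139.9 CPM in HKO livers. The groups therefore touched at fl/fl mouse 3 and HKO mouse 3. The difference on the log2 scale was 0.41 (95% CI 0.02 to 0.80, adjusted p = 0.109, edgeR), and without HKO mouse 3 it was 0.52 (adjusted p = 0.0273, edgeR).

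*Ethe1* (ENSMUSG00000064254, chr7:24587543-24608925, plus strand) encodes the persulfide dioxygenase that acts after SQOR and produces sulfite. Its level was 45.4, 36.3 and 45.4 CPM in fl/fl livers and 50, 63.5 and 38.3 CPM in HKO livers. HKO mouse 3 lay within the fl/fl range and HKO mouse 2 was the highest liver. Its log2 fold change was 0.25 (95% CI -0.18 to 0.69, adjusted p = 0.356, edgeR), and 0.059 without HKO mouse 2.

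The scale on which libraries are compared entered all of these values. TMM factors were 1.21, 1.15 and 1.13 in fl/fl mice and 0.812, 0.802 and 0.984 in HKO mice. The median gene shifted by -0.42 on the log2 scale when library size alone was used in place of TMM, and by -0.72 with ERCC scaling. Among all genes the split of calls was 2012 higher and 2651 lower with TMM, 539 and 4923 with library size alone, 1461 and 3039 with upper-quartile factors, and 107 and 2759 with ERCC scaling. Measured relative to the median gene under ERCC scaling, the log2 fold change was 0.83 for *Mpst*, 0.61 for *Suox*, 0.52 for *Cdo1*, 0.31 for *Sqor*, 0.20 for *Cbs* and 0.12 for *Ethe1*. On the same footing it was -0.01 for *Csad* and -0.10 for *Cth*. The order of the genes relative to the median gene was thus led by *Mpst*, *Suox* and *Cdo1* on both scales.

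**Figure D2:**
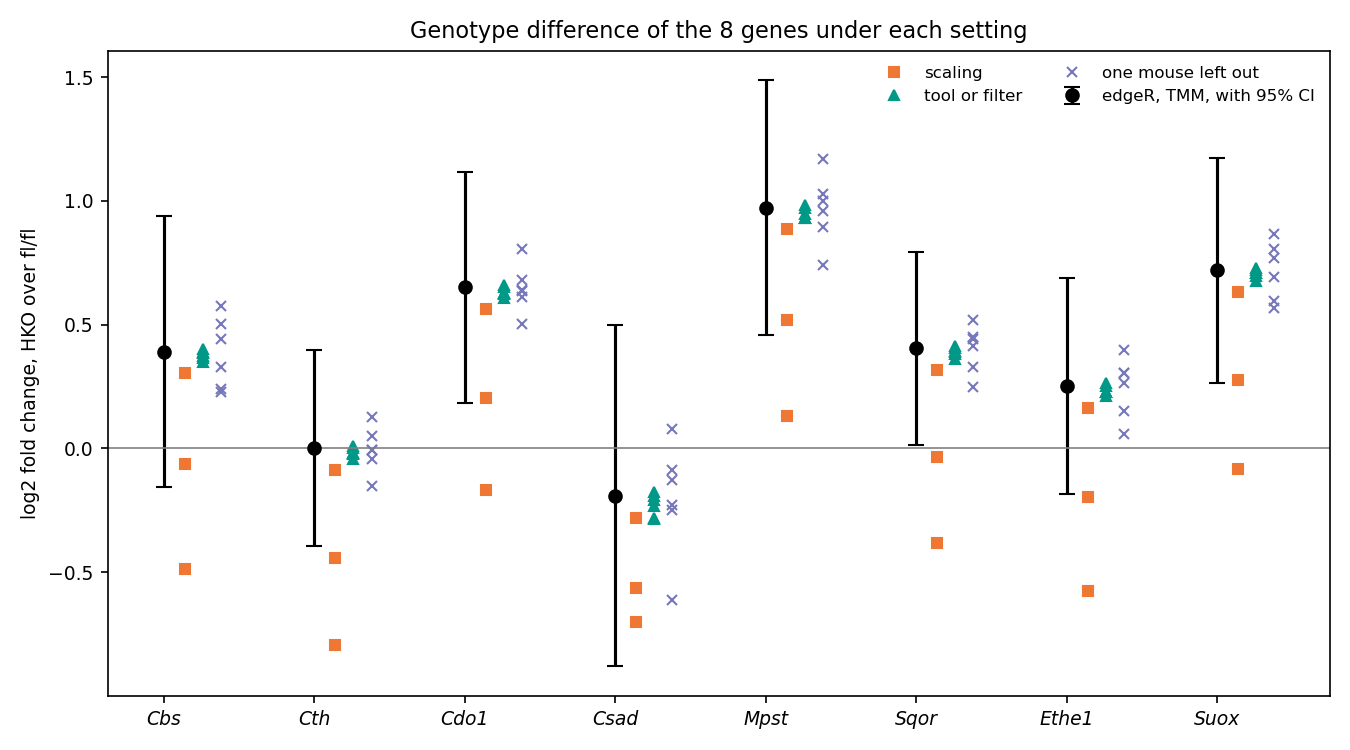
Log2 fold change (HKO over fl/fl) of the 8 genes in edgeR with TMM scaling (black, with its 95% confidence interval) and under other scalings, tools or filters, and with 1 mouse left out. *Mpst* stays above 0 at every setting shown, *Cdo1* and *Suox* fall below 0 with ERCC scaling (-0.17 and -0.08), and *Cbs*, *Cth*, *Sqor* and *Ethe1* fall below 0 with library size alone and with ERCC scaling.

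HKO livers differed among themselves, in an order that depended on the scale. In TMM-scaled CPM HKO mouse 3 was the lowest HKO liver for 7 of the 8 genes and HKO mouse 2 the highest for 6. Of the 2012 genes higher in HKO livers, HKO mouse 3 was the lowest HKO liver in 60.8%, against 34.7% of all tested genes. The ERCC RNAs made up 1.47, 1.84 and 1.42% of the counts in fl/fl mice 1, 2 and 3 and 2.75, 2.31 and 1.35% in HKO mice 1, 2 and 3. In counts per ERCC count, an alternative chosen after seeing the data, HKO mouse 3 was the highest and HKO mouse 1 the lowest HKO liver for all 8 genes, and HKO mouse 3 was the highest in 92.5% of all tested genes. *Cdo1* was then at 63.3, 51.4 and 61.8 counts per 1000 ERCC counts in fl/fl livers and at 38.4, 51.3 and 67.3 in HKO livers, and the groups overlapped. When HKO mouse 3 was left out, 5 of the 8 genes were higher, *Cbs* and *Sqor* joining the other 3. Of all genes in that fit, 2521 of 16774 were higher. When fl/fl mouse 1 or fl/fl mouse 3 was left out, 0 of the 8 were called higher, with edgeR adjusted p-values of *Cdo1*, *Mpst* and *Suox* between 0.0557 and 0.141. Of all genes, 936 of 16262 were then higher without fl/fl mouse 1 and 805 of 16336 without fl/fl mouse 3. The calls thus changed over the whole series and not only among the 8 genes. Over the 6 fits that left out 1 mouse, 805 to 2521 of all genes were called higher.

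Ratios of neighboring genes within a liver do not depend on the scale between libraries, and 4 were compared by a two-sided exact permutation test with 10 possible splits of the livers, for which the smallest possible p is 0.1. *Mpst* to *Sqor* was 0.577, 0.594 and 0.566 in fl/fl livers and 0.885, 0.925 and 0.725 in HKO livers. The genotypes did not overlap, and the log2 ratio was higher in HKO livers by 0.54 (exact permutation p = 0.1, adjusted over 4 ratios 0.133). *Ethe1* to *Suox* was 0.684, 0.4 and 0.524 in fl/fl livers and 0.359, 0.393 and 0.38 in HKO livers. All HKO livers were lower, with a difference of -0.47 on the log2 scale (exact permutation p = 0.1, adjusted 0.133), which moved to -0.28 without fl/fl mouse 1.

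*Cth* to *Cbs* was 0.548, 0.855 and 0.541 in fl/fl livers and 0.397, 0.528 and 0.538 in HKO livers. HKO mouse 3 and fl/fl mouse 3 were nearly level, and the log2 difference of -0.39 (exact permutation p = 0.1, adjusted 0.133) moved to -0.17 without fl/fl mouse 2. *Cdo1* to *Csad*, the pair that flanks cysteine sulfinate, was 3.31, 3.41 and 2.67 in fl/fl livers and 9.88, 7.27 and 2.76 in HKO livers. HKO mice 1 and 2 were far above every fl/fl mouse, and HKO mouse 3 lay inside the fl/fl range, so the groups overlapped (log2 difference 0.91, exact permutation p = 0.3, adjusted 0.3). The difference was 0.53 without HKO mouse 1 and 1.45 without HKO mouse 3.

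**Figure D3:**
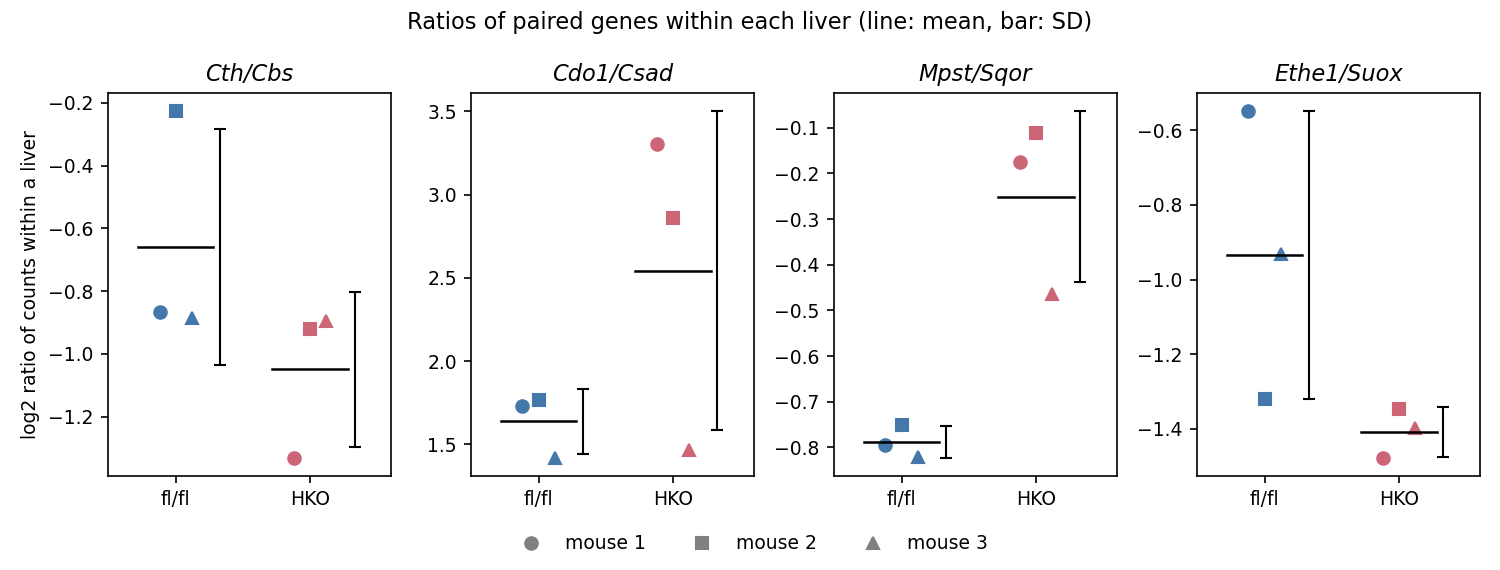
Log2 ratio of the counts of 2 neighboring genes within each liver, with points for single mice, a line for the mean and a bar for the SD (n = 3 mice per genotype). *Mpst* to *Sqor* is higher in every HKO liver (mean log2 ratio -0.25 against -0.79) and *Ethe1* to *Suox* is lower in every HKO liver (-1.41 against -0.93), while *Cdo1* to *Csad* overlaps between genotypes through HKO mouse 3.

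Markers of several cell types moved with genotype, where 12.5% of all tested genes were higher and 16.5% lower with TMM scaling. Of the 6 hepatocyte genes 1 was called higher with TMM scaling, *Ttr*. Their median log2 fold change was 0.64 with TMM and -0.20 with ERCC scaling. With TMM scaling *Ahsg* went the other way (-0.34, adjusted p = 0.318, edgeR), and the other 5 were positive. *Fgb* varied widely, at 2694, 1576 and 2845 CPM in fl/fl livers and at 8203, 3077 and 2082 CPM in HKO livers. The sum of the 6 genes was 63194 ± 7632 CPM in fl/fl and 90648 ± 19989 CPM in HKO livers (SD, n = 3 mice each). With library size alone, upper-quartile factors and ERCC scaling 0 hepatocyte genes were higher. With library size alone and with ERCC scaling 1 was lower. All 5 cholangiocyte genes were lower under each of the 4 scalings, with *Krt19* and *Epcam* detected in every liver and *Spp1* the most abundant. Their sum went from 1004, 1181 and 951 CPM to 128, 128 and 245 CPM. Most of that sum was *Spp1*. Per 1000 ERCC counts *Spp1* gave 70.5, 58.1 and 61.9 of 80.7, 72.6 and 74.4 counts in fl/fl livers. In HKO livers it gave 2.99, 3.57 and 15.5 of 3.66, 4.34 and 17.6 counts. In the stellate cell and myofibroblast list 5 of 7 genes were lower, with a sum of 1182, 1210 and 1225 CPM in fl/fl livers and of 217, 335 and 617 CPM in HKO livers. *Col1a1* was the most abundant of these per length. HKO mouse 3 had the most *Col1a1* and *Spp1* mRNA of the HKO livers both in TMM-scaled CPM and per ERCC count. The sum of the hepatocyte genes was lowest there in TMM-scaled CPM but highest per ERCC count, at 2988, 3385 and 4877 counts per 1000 ERCC counts in HKO mice 1, 2 and 3.

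All 4 T cell genes were lower under each scaling, *Cd8a* being the most abundant, and their sum went from 15.6, 12 and 13.3 CPM to 2.29, 2.13 and 2.99 CPM. In the macrophage list 3 of 7 genes were higher (*Clec4f*, *Vsig4*, *Timd4*) and 2 lower (*Cd68*, *Trem2*), with *Cd5l* the most abundant and a sum of 264, 136 and 236 CPM in fl/fl and 306, 371 and 304 CPM in HKO livers. In the endothelial list 2 of 6 were higher (*Stab2*, *Clec4g*) and 0 lower with TMM scaling, with sums of 185, 160 and 171 CPM and of 227, 263 and 266 CPM. With library size alone 1 endothelial gene was higher and 2 were lower. Per length *Cdh5* was the highest of the endothelial list in fl/fl livers and *Clec4g* in HKO livers. Of the remaining lists, 0 of 3 B cell genes were called with TMM scaling and 2 were lower with library size alone and with ERCC scaling (summed 4.40 ± 0.35 CPM in fl/fl and 2.31 ± 0.86 CPM in HKO livers, *Cd79b* highest). In the neutrophil list 1 of 3 was lower, *Csf3r*, and *S100a9* was highest per length (9.44 ± 2.07 and 6.07 ± 1.75 CPM in sum), and in the erythroid list 1 of 3 was higher, *Alas2*, with *Hba-a1* highest per length (97.3 ± 22 and 158 ± 18.5 CPM in sum). Of the kidney and pancreas genes, *Umod* and *Prss2* were too low to be tested, with 10 counts or fewer in every liver, and *Cela1* did not pass, being lower with library size alone. With ERCC scaling 2 macrophage genes were higher and 2 lower, and 0 of the endothelial, neutrophil and erythroid genes were called.

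Because the deletion was made in hepatocytes, the 8 genes were also set against the 6 hepatocyte genes within each liver, an alternative chosen after seeing the data and given without a test. Relative to the mean log2 count of those 6 genes, HKO minus fl/fl was 0.45 for *Mpst*, 0.23 for *Suox*, 0.14 for *Cdo1*, -0.09 for *Sqor*, -0.11 for *Cbs*, -0.25 for *Ethe1*, -0.50 for *Cth* and -0.76 for *Csad*. The genotypes overlapped for 7 of the 8 genes on this scale, *Cdo1*, *Mpst* and *Suox* included. For *Cth* each HKO liver was lower, at -5.98, -5.33 and -5.45 against -5.10, -4.87 and -5.30 in fl/fl livers. The 6 hepatocyte genes themselves had a median log2 fold change of 0.64 with TMM scaling, where *Cth* stood at 0.00073. They did not all move alike, as given above. The share of all tested genes that lay lower in every HKO liver on this scale was not computed. The part that the share of hepatocytes or of other cells played in the differences was not tested.

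**Figure D4:**
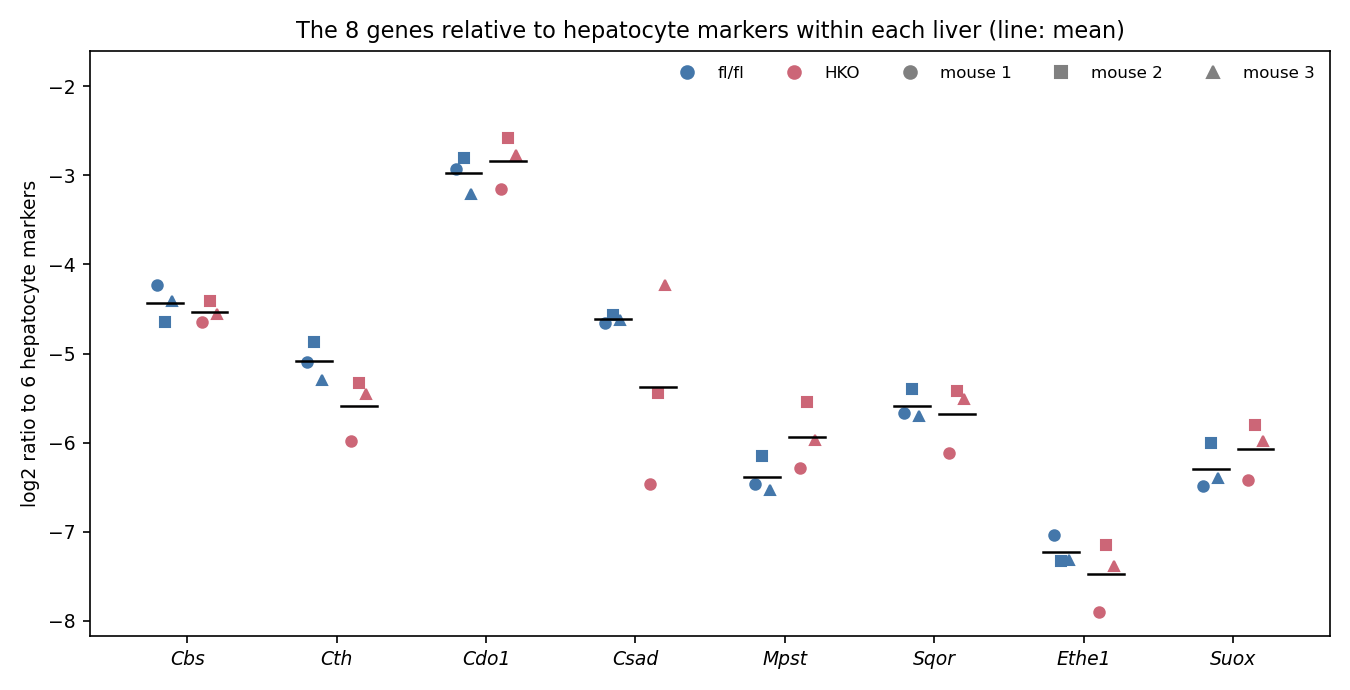
Log2 ratio of each of the 8 genes to the mean log2 count of 6 hepatocyte genes within each liver, with points for single mice and a line for the mean (n = 3 mice per genotype). The genotypes overlap for every gene except *Cth* (mean -5.59 in HKO against -5.09 in fl/fl livers). With TMM scaling the 6 hepatocyte genes had a median log2 fold change of 0.64, and *Cth* stood at 0.00073.

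Sequences near transcript starts are shown. They are the stretches in front of *Suox* and *Cbs*, 1 gene that was higher with TMM scaling and 1 that did not pass, and the only 2 matches to the longer motifs searched. Both matches lie inside the annotated bounds of their genes, *Mpst* and *Sqor*. RefSeq windows (GRCm38.p6) from 250 bases before to 50 bases after a transcript start were found for 6 of the 8 genes, and *Cth* and *Cdo1* had none. The stretches below are the parts of a window outside annotated exons for *Suox* (chr10:128674074-128674168, minus strand) and *Cbs* (chr17:31637239-31637455, minus strand), with GC boxes (GGGCGG or its reverse complement) in capitals. The last lines hold the matches in the *Mpst* window (chr15:78406780-78406806, plus strand) to TGACNNNGC, the core of the antioxidant response element, and in the *Sqor* window (chr2:122771561-122771586, plus strand) to TGATGNAA on the reverse strand, the composite element of ATF4, again in capitals.
Suox: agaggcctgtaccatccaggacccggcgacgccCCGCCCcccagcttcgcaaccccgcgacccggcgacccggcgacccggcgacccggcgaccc
Cbs: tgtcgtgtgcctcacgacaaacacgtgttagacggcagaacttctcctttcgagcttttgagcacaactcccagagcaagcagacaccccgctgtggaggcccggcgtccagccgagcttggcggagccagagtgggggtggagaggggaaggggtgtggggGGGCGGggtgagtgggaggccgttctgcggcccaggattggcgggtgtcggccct
Mpst: gggagggggTGACATGGCggagctggg
Sqor: gtttttcctTTTCATCAtttctctgt
Both strands of every window were searched. A GC box was found in 5 of the 10 windows of the 6 genes, against 35.7% of 32851 windows of all genes, and CCAAT in 5 of 10, against 37.4%. TGACNNNGC was found in 1 of 10 windows (12.4% of all windows) and TGATGNAA in 1 of 10 (3.97% of all). The *Suox* window was the richest in G and C, at 73.3% against a median of 52.7% over all windows, and held 5 GC boxes, 1 of them in the stretch shown. A match describes the letters of a window and not a site in use.

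*Mpst* lies head to head with *Tst*, which encodes rhodanese, the thiosulfate sulfurtransferase related to MPST, and 508 bases separate the genes. *Tst* stood at 117, 150 and 157 CPM in fl/fl livers and at 301, 294 and 203 CPM in HKO livers. The groups did not overlap, as for *Mpst*, and the log2 fold change was 0.91 (SE 0.19, adjusted p = 0.0108, edgeR), with 0.10 under ERCC scaling. Each gene has reads of its own, since the 2 do not share exons.

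The genes around the 8 were described next, from 8 lists of 98 genes, 97 of which were tested. In the methionine cycle, which supplies homocysteine, 7 of 15 genes were higher and 0 lower, against 12.5% and 16.5% of all tested genes. The median log2 fold change was 0.57, which fell to -0.29 with ERCC scaling. With DESeq2 1 gene of the list was lower. *Ahcy*, whose enzyme releases homocysteine from S-adenosylhomocysteine, stood at 753, 1239 and 1112 CPM in fl/fl livers and at 2243, 2506 and 1676 CPM in HKO livers (log2 fold change 1.05, adjusted p = 0.0154, edgeR). *Bhmt*, which uses betaine to return homocysteine to methionine and so competes with CBS, was at 1698, 1620 and 1182 CPM against 3637, 4345 and 1660 CPM (1.10, adjusted p = 0.0447, edgeR), and HKO mouse 3 lay within the fl/fl range. This call held in 4 of 15 alternatives and was lost in 11, with an adjusted p of up to 0.155 when fl/fl mouse 3 was left out (edgeR). *Bhmt2*, its relative, had a log2 fold change of 0.81 and *Gamt*, which makes creatine, of 0.86, which became 0.03 and -0.01 with ERCC scaling. *Gnmt*, the most abundant gene of the list per length, did not pass, with 736, 917 and 942 CPM against 1711, 1919 and 571 CPM, and its log2 fold change of 0.69 became -0.29 with ERCC scaling and 1.05 without HKO mouse 3 (adjusted p = 0.00319, edgeR).

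**Figure D5:**
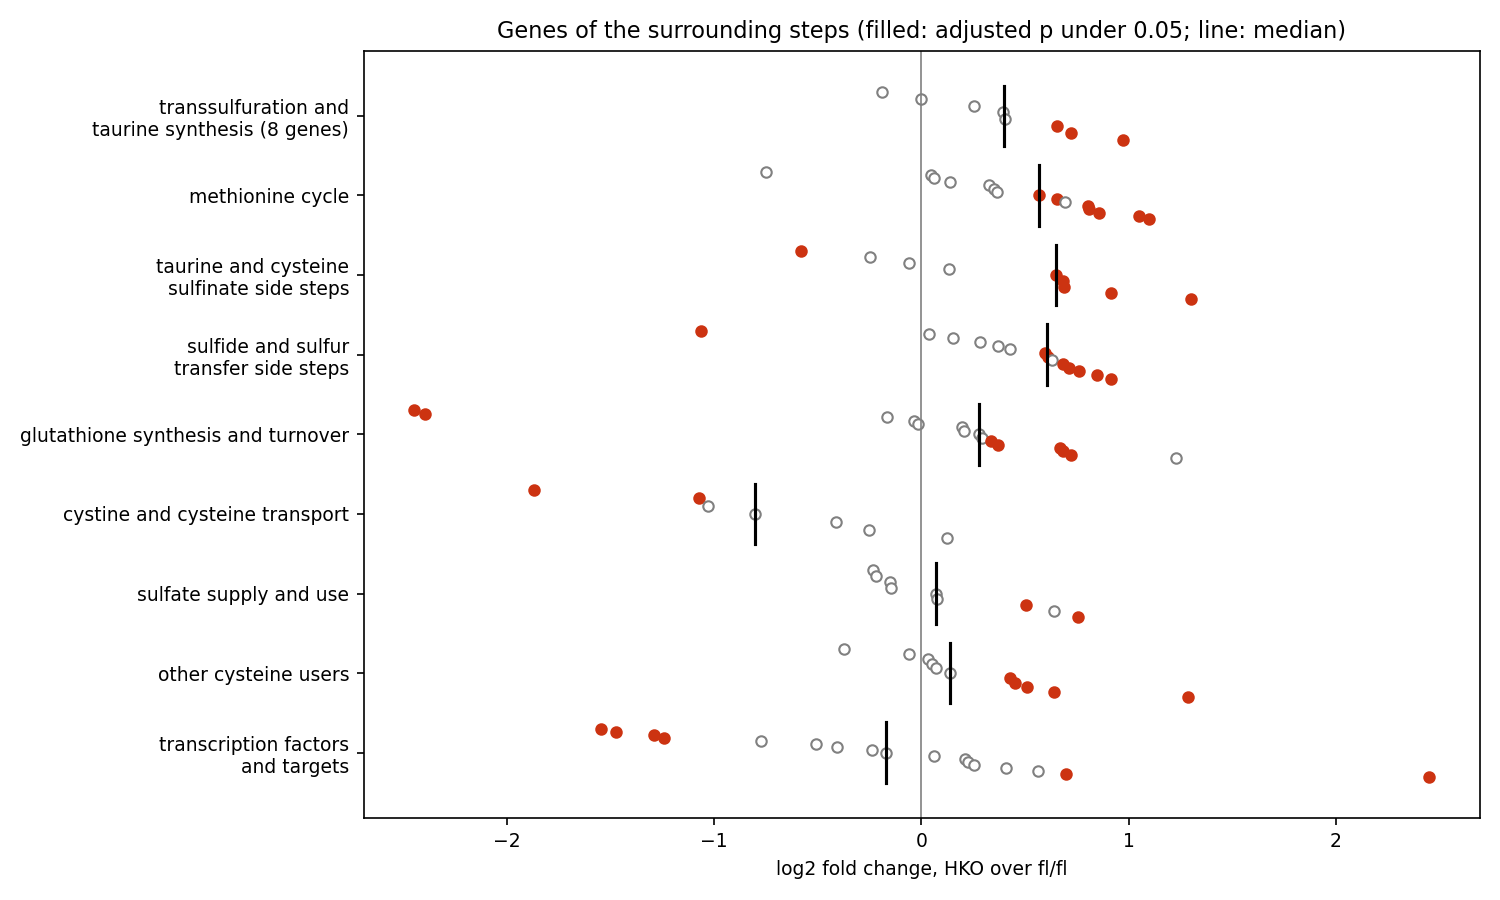
Log2 fold change (HKO over fl/fl, TMM scaling) of the 8 genes and of the genes in 8 lists of surrounding steps, 1 point per tested gene, filled where the edgeR adjusted p was under 0.05, with a vertical line at each list's median. The medians run from -0.80 for cystine and cysteine transport to 0.65 for the taurine side steps, against 0.03 for all tested genes, and with ERCC scaling the median of all tested genes is -0.69.

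On the side of taurine, 5 of 9 genes were higher and 1 was lower, against 12.5% and 16.5% of all tested genes. The median was 0.65, or -0.09 with ERCC scaling. The largest difference was in *Slc27a5*, the ligase that prepares bile acids for conjugation, which stood at 312, 340 and 387 CPM in fl/fl livers and at 974, 1010 and 572 CPM in HKO livers (log2 fold change 1.30, adjusted p = 0.00589, edgeR, and 0.44 with ERCC scaling). *Baat*, which joins the activated bile acid to taurine or glycine, was higher by 0.69 on the log2 scale (adjusted p = 0.0092, edgeR), and at -0.09 with ERCC scaling. *Fmo1*, which oxidizes hypotaurine to taurine, went from 133 ± 20.2 to 250 ± 52.1 CPM (SD, n = 3 mice each) with a log2 fold change of 0.91 (0.23 with ERCC scaling). *Got2*, which can divert cysteine sulfinate by transamination, was at 0.68 and reversed to -0.08 with ERCC scaling.

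The 2 taurine carriers of the list were called in opposite directions with TMM scaling, *Slc6a13* losing its direction with ERCC scaling. *Slc6a6*, the main taurine transporter, was lower, at 129, 131 and 123 CPM in fl/fl livers and at 84.8, 83.6 and 87.6 CPM in HKO livers (log2 fold change -0.58, adjusted p = 0.00603, edgeR). Both groups were tight and well apart. *Slc6a13*, which carries GABA and taurine in liver, was higher with TMM, at 163, 196 and 196 CPM against 259, 321 and 290 CPM (0.65, adjusted p = 0.0136, edgeR), and stood at -0.05 with ERCC scaling. *Ado*, the dioxygenase that makes hypotaurine from cysteamine, stood at 24.4, 21 and 24.5 CPM and at 19.3, 22.7 and 25.1 CPM, and the groups overlapped.

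Among the side steps of sulfide and sulfur transfer, 7 of 14 genes were higher and 1 lower, against 12.5% and 16.5% of all tested genes. The median was 0.61, or -0.19 with ERCC scaling. Of the 4 genes in the list for the molybdenum cofactor that SUOX requires, 3 were higher with TMM scaling, and *Mocs3* did not pass (0.03, adjusted p = 0.89, edgeR). *Mocs1* stood at 86.5, 85.9 and 83.8 CPM in fl/fl livers and at 161, 187 and 112 CPM in HKO livers (0.85, adjusted p = 0.0118, edgeR). With ERCC scaling *Mocs1* was at 0.02. *Mocs2* had a log2 fold change of 0.60 and *Gphn*, whose product inserts molybdenum, of 0.68, which became -0.20 and -0.02 with ERCC scaling. *Txn1*, the cytosolic thioredoxin, which can accept sulfur from MPST, was the most abundant per length, at 0.71, and *Tstd3*, a rhodanese relative, was at 0.76. With ERCC scaling these 2 turned to -0.10 and -0.13, and the call of *Tstd3* held in 4 of 15 alternatives, with a leave-one-out adjusted p of up to 0.14 (edgeR). The gene that was lower was *Tstd1*, which encodes a small thiosulfate sulfurtransferase, at 28 ± 3.4 CPM in fl/fl and 13.4 ± 3.63 CPM in HKO livers (SD, n = 3 mice each; log2 fold change -1.06, adjusted p = 0.00672, edgeR).

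In the synthesis and turnover of glutathione, the main other use of cysteine, 5 of 15 genes were higher and 2 lower. Of all tested genes 12.5% were higher and 16.5% lower. The median of the list was 0.28, or -0.48 with ERCC scaling. The number higher was 0 with library size alone and with ERCC scaling, and 2 to 4 with 1 mouse left out (2 without fl/fl mouse 2 or 3). Synthesis itself did not pass, with log2 fold changes of 0.29 for *Gclc* and 0.21 for *Gclm*, the subunits of glutamate-cysteine ligase, both negative with library size alone (-0.13 and -0.21) and with ERCC scaling. The 2 lower genes were *Ggt1*, a gamma-glutamyltransferase that opens extracellular glutathione, and *Dpep1*, a dipeptidase that releases cysteine from the product. With TMM scaling the related transferase genes *Ggt5* (-0.02) and *Ggt6* (0.28) did not pass, and *Anpep*, a surface aminopeptidase, was called higher (0.37, adjusted p = 0.0487, edgeR). *Ggt1* was at 2.03, 3.35 and 2.09 CPM in fl/fl livers and at 0.764, 0.354 and 0.236 CPM in HKO livers, and *Dpep1* was at 7.93, 8.80 and 9.76 CPM and at 0.679, 1.32 and 2.99 CPM. Their log2 fold changes were -2.45 and -2.39 (adjusted p = 0.0072 and 0.0069, edgeR). Both are low in all livers. In the same livers the median log2 fold change was -2.97 for the cholangiocyte genes, -2.44 for the T cell genes and -1.46 for the stellate cell and myofibroblast genes. Whether the 2 lower genes follow any of these cell types was not tested. *Lap3*, a peptidase, and *Oplah*, which returns oxoproline to glutamate, were higher at 0.72 and 0.68, turning to -0.06 and -0.04 with ERCC scaling.

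Transport of cystine and cysteine was the list with the lowest median, -0.80. In it 0 of 7 tested genes were higher and 2 lower, against 12.5% and 16.5% of all tested genes. The median was -1.56 with ERCC scaling and -0.51 without fl/fl mouse 1. The number lower was 1 without fl/fl mouse 1 or 3 and 4 without HKO mouse 1. *Slc7a11*, the cystine-glutamate exchanger, was at 2.79, 1.09 and 1.93 CPM in fl/fl livers and at 0.849, 0.253 and 0.472 CPM in HKO livers (log2 fold change -1.87, adjusted p = 0.0282, edgeR). All HKO livers were below all fl/fl livers at this low level. The call was lost in 4 of 14 alternatives, with an adjusted p of 0.113 without fl/fl mouse 1, and the number of lower genes in the list was 4 with library size alone, with upper-quartile factors and with ERCC scaling (edgeR). *Slc1a5*, a carrier of neutral amino acids, was at 20, 21.1 and 19.9 CPM against 10.4, 9.01 and 9.60 CPM (-1.07, adjusted p = 0.00141, edgeR). *Slc3a2*, the partner chain of SLC7A11 and the most abundant gene of the list per length, did not pass (-0.41, adjusted p = 0.0835, edgeR).

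Downstream of SUOX, in sulfate supply and use, 2 of 9 genes were higher and 0 lower, with a median of 0.07. Of all tested genes 12.5% were higher and 16.5% lower. With library size alone 0 were higher and 4 lower with a median of -0.34, and with ERCC scaling 0 were called with a median of -0.61. The 2 were *Bpnt1*, which clears the nucleotide left by sulfation (0.76, adjusted p = 0.00392, edgeR, and 0.05 with ERCC scaling), and *Slc26a1*, a sulfate carrier and the most abundant of the list per length (0.50, adjusted p = 0.0458, edgeR, and -0.30 with ERCC scaling). The call of *Slc26a1* held in 4 of 15 alternatives, with a leave-one-out adjusted p of up to 0.159 (edgeR). Among the other users of cysteine, 5 of 11 were higher and 0 lower, against the same 12.5% and 16.5%. Their median was 0.14, which turned to -0.30 with library size alone and to -0.64 with ERCC scaling. The number higher was 1 with library size alone, 0 with ERCC scaling (with 1 lower) and 1 to 5 with 1 mouse left out (1 without fl/fl mouse 1 or 2, 2 without fl/fl mouse 3 or HKO mouse 2). *Pank1*, the first enzyme of coenzyme A synthesis, rose from 101, 114 and 119 CPM to 267, 299 and 250 CPM (1.29, adjusted p = 0.00111, edgeR, and 0.55 with ERCC scaling). *Coasy*, which completes coenzyme A, and *Iscu* and *Nfs1*, which build iron-sulfur clusters, were at 0.64, 0.51 and 0.45 and turned to -0.08, -0.27 and -0.27 with ERCC scaling. The metallothionein *Mt1*, the most abundant per length, did not pass (-0.06, adjusted p = 0.944, edgeR).

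Of 17 transcription factors and target genes known to act on these pathways or to report on them, 2 were higher and 4 lower, with a median of -0.17. Among all tested genes 12.5% were higher and 16.5% lower, so these counts were near that share. With library size alone 1 was higher and 7 lower, with a median of -0.58. With ERCC scaling 1 was higher and 4 lower, with a median of -0.83. The lower genes with TMM scaling were *Phgdh* (-1.55) and *Psat1* (-1.29) of serine synthesis, *Asns* (-1.47) of asparagine synthesis and the pseudokinase gene *Trib3* (-1.24). The call of *Asns* was lost in 3 of 15 alternatives, with an adjusted p of up to 0.116 without fl/fl mouse 1 (edgeR). *Phgdh* was at 3.74, 4.36 and 4.07 CPM in fl/fl livers and at 1.70, 1.32 and 1.14 CPM in HKO livers (adjusted p = 0.00405, edgeR), while *Atf4*, the factor of the amino acid stress response, did not pass (0.23, adjusted p = 0.23, edgeR, and -0.54 with ERCC scaling). Of the 4 genes of bile acid metabolism in the list, 2 were higher with TMM scaling, and *Cyp7a1* (0.56, adjusted p = 0.297, edgeR) and *Nr0b2* (0.06, adjusted p = 0.911, edgeR) did not pass. *Cyp8b1*, the sterol hydroxylase that sets the makeup of the bile acid pool, was at 65.8, 50.5 and 56.6 CPM against 288, 484 and 173 CPM (2.45, adjusted p = 0.00266, edgeR), and *Nr1h4*, the bile acid receptor FXR, was at 0.70 (adjusted p = 0.00564, edgeR), which became -0.05 with ERCC scaling. *Hnf4a*, the most abundant of the list per length in fl/fl livers, did not pass (0.41, adjusted p = 0.101, edgeR, and -0.27 with ERCC scaling). In HKO livers *Cyp8b1* stood above it per length, at a mean of 161 against 133 CPM per kb.

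The genes whose pattern over the 6 livers was most like that of each of the 8 were named by Pearson's r of log2 CPM among 4495 genes of at least 5 log2 CPM, as a description. For *Cdo1* they were *Tmx2*, *Umps* and *Slc38a4* (r from 0.997 to 0.999), for *Mpst* *Psmb7* and *Slc6a12* (0.998 to 0.999), for *Suox* *Atp5c1*, *Ubl7* and *Arfgap2* (0.994 to 0.999) and for *Sqor* *Aldh4a1*, *Usf2* and *Cyc1* (0.997 to 0.999). An r over 0.9 was common for these 4 genes, held by 19.4% of the compared genes with *Cdo1*, 21.5% with *Mpst*, 18.5% with *Suox* and 12% with *Sqor*. The other 4 were less like the rest of the transcriptome, with 1.58% for *Cbs*, 0.756% for *Csad*, 0.623% for *Ethe1* and 0.445% for *Cth*. Their closest genes were *Tars2* (0.991) for *Cbs*, *Atp6v1b2* (0.984) for *Csad*, *Gga1* (0.982) for *Cth* and *H2-Q7* (0.965) for *Ethe1*. The 6 livers differ in genotype and in cell-type markers, and all genes were put on the same scale, so these coefficients carry no p.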

How the data were processed

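Liver RNA of 6 male mice on the AMLN diet was analysed, 3 SHMT2 fl/fl and 3 SHMT2 HKO, grouped by their deposited labels. The authors trimmed read pairs (Trimmomatic 0.36), mapped these onto GRCm38 plus ERCC sequences (STAR 2.5.2b) and counted unique hits on genes, with Subread 1.5.2 and featureCounts named in the submitters' processing notes. The deposited values are these raw counts, without normalization. The strand setting of the counting is not given in the sources used here.

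The table held 49671 genes and 92 ERCC RNAs, the latter kept apart from library sizes and tests. Genes were named and measured with a GENCODE annotation of GRCm38, in which 259 gene IDs had no entry. Counts per liver summed to 23090837 to 34089722, and a floor of 3 counts came to 0.0734 to 0.152 CPM. Replicates of a genotype differed by more than sampling noise, with a chi-square of 26.9 to 151 per gene, and were counted separately. Low genes were removed by filterByExpr (edgeR 4.0.16, R 4.3.3), and counts were scaled by TMM and tested by the two-sided quasi-likelihood F test with robust dispersions. Adjusted p-values are Benjamini-Hochberg values over 16089 genes, with 0.05 as the threshold. CPM used TMM-scaled library sizes. Ratios used log2 counts with a prior count of 0.5. Differential expression in the study rested on limma-voom, which was run here as an alternative.

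The genes named are *Shmt2*, the 8 genes, from each list up to 4 called genes with the largest absolute change and the gene with the highest level per length, and list genes whose role is next to one of the 8. *Mocs3*, *Ggt5*, *Ggt6*, *Anpep*, *Cyp7a1* and *Nr0b2* were named after their values were seen. Of the 3 genes of most similar pattern to each of the 8, all were taken for 4 genes, with 1 result not reported here, and the first for the others. The 8 genes, the lists and the tests were chosen with earlier results of these data known. Alternatives were DESeq2 1.42.0, limma-voom (limma 3.58.1), other scalings, filters and dispersions, the replicate number as a block, the cutoff of the study's methods (p under 0.05 and adjusted p under 0.25) and leaving out each mouse. The ratio to hepatocyte genes and the order of livers per ERCC count were chosen after seeing the data. The code was tested on simulated data.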

Additional observations from a re-analysis of the deposited data

How the results depend on the processing

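The fold changes of *Shmt2* kept their sign and call under all 15 alternatives (-2.82 to -1.92), and *Mpst* kept its sign throughout. Of the 3 called genes, *Cdo1* lost its call in 9 alternatives and reversed in 1, *Suox* in 5 and 1, and *Mpst* in 3 and 0. With library size alone, the log2 fold changes were -0.062 for *Cbs*, -0.44 for *Cth*, 0.20 for *Cdo1*, -0.035 for *Sqor*, -0.20 for *Ethe1*, 0.28 for *Suox*, -0.0055 for *Hnf4a*, -0.13 for *Gclc*, -0.21 for *Gclm* and -0.21 for *Atf4*. With ERCC scaling they were -0.49 for *Cbs*, -0.79 for *Cth*, -0.17 for *Cdo1*, 0.13 for *Mpst*, -0.38 for *Sqor*, -0.58 for *Ethe1* and -0.082 for *Suox*. With the same scaling, of the list genes named in the text and followed through the alternatives, those that turned negative were *Gamt* (-0.014), *Gnmt* (-0.29), *Baat* (-0.091), *Got2* (-0.079), *Tstd3* (-0.13), *Txn1* (-0.10), *Lap3* (-0.062), *Oplah* (-0.044), *Slc26a1* (-0.30), *Coasy* (-0.082), *Iscu* (-0.27), *Nfs1* (-0.27), *Hnf4a* (-0.27), *Slc6a13* (-0.049), *Mocs2* (-0.20), *Gphn* (-0.015), *Gclc* (-0.40), *Gclm* (-0.48), *Atf4* (-0.54) and *Nr1h4* (-0.047). *Mocs3*, *Ggt5*, *Ggt6*, *Anpep*, *Cyp7a1* and *Nr0b2* were not followed in this way, and their values with ERCC scaling are not given here. Both scalings move the median gene (by -0.42 and -0.72), and relative to it the 8 genes kept their sign with library size alone and with ERCC scaling.

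*Cdo1* was also lost with upper-quartile factors (0.56), with at least 10 counts in every liver (0.61) and with the replicate number as a replicate block (0.62). *Cth*, close to 0 with TMM, was at -0.017 with limma-voom, -0.088 with upper-quartile factors, -0.023 without a filter beyond 1 count, -0.042 with at least 10 counts in every liver and -0.019 with the replicate block. Relative to the 6 hepatocyte genes, chosen after seeing the data, the differences were -0.11 for *Cbs*, -0.50 for *Cth*, 0.14 for *Cdo1*, 0.45 for *Mpst*, -0.091 for *Sqor*, -0.25 for *Ethe1* and 0.23 for *Suox*. With 1 mouse left out, the log2 fold change ranged from 0.23 to 0.57 for *Cbs*, -0.15 to 0.13 for *Cth*, 0.50 to 0.81 for *Cdo1*, -0.61 to 0.078 for *Csad*, 0.74 to 1.17 for *Mpst*, 0.25 to 0.52 for *Sqor*, 0.059 to 0.40 for *Ethe1* and 0.57 to 0.87 for *Suox*. It ranged from -0.79 to 0.32 for *Mt1* and from -0.17 to 0.042 for *Ado*. The range was 0.061 to 0.62 for *Gclc* and 0.11 to 0.27 for *Gclm*.

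The number of the 8 genes that were higher was 1 with library size alone (with 1 lower), 0 with ERCC scaling and 0 to 5 with 1 mouse left out. Among all genes, 539 were higher and 4923 lower with library size alone and 107 were higher with ERCC scaling. At the cutoff of the study's methods 3143 were higher with edgeR and 3067 with limma-voom. Leaving out 1 mouse gave 805 to 2521 higher and 1621 to 3076 lower. The number of higher genes in the lists fell to 1 with library size alone in the methionine cycle and in both lists of side steps and to 0 with ERCC scaling in the same lists, and with 1 mouse left out it was 0 to 7 in the methionine cycle, 2 to 5 in the taurine side steps and 2 to 8 in the sulfide side steps. Beside the sign changes given above, of 15 alternatives *Iscu* lost its call in 7, *Gamt* and *Got2* in 6 each, *Mocs2* in 5, and *Ahcy*, *Txn1*, *Coasy* and *Nfs1* in 4 each, and *Asns*, *Mocs1*, *Bhmt2* and *Slc6a13* in 3 each. The same-numbered livers of the genotypes did not deviate together (correlations of -0.048, -0.002 and -0.069), so the numbers were not taken to pair the samples, and the replicate block called 1397 genes higher, 2187 lower and 2 of the 8 genes higher. Every edgeR fit, the main fit included, assumed that both groups vary alike. The SD was larger in HKO than in fl/fl livers for each of the 8 genes in TMM-scaled CPM. It was 298 against 27.0 CPM for *Cdo1*, 46.7 against 7.57 for *Mpst* and 39.5 against 12.5 for *Cth*. With 3 livers per genotype, the 95% intervals of *Cbs*, *Cth*, *Csad* and *Ethe1* included 0, and that of *Sqor* began at 0.02.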
